A study of Mus musculus with 12 samples.

Results

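The 47 genes described here carry a cell from G1 into S phase and copy its DNA. They were taken by gene symbol from a list that covers replication licensing, DNA synthesis, nucleotide supply and the S-phase checkpoint. The rule uses no measured value, though the list was drawn up with earlier results of these data known. All 47 were found among the 55315 genes of the count table, and all 47 passed the filter on low counts, so they made up 0.282% of the 16677 genes tested.

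The RNA came from keratinocytes, the epithelial cells of the epidermis, at the edge of skin wounds in mice on day 3. A ring 0.25 mm wide was taken around each wound, and cells of 2 or 3 mice went into each pool. Live cells positive for Epcam and integrin alpha6 and negative for CD45, CD31 and CD117 were sorted by integrin alpha5 (A5), which the labels use to separate the migrating epithelial tongue (A5-positive) from the remaining wound edge (A5-negative). The mice were wild type or RORγt deficient, and the titles of the deficient samples read GFP-KI, with no zygosity or Cre line named. RORγt is the transcription factor of lymphocytes that make interleukin-17, and these lymphocytes are not among the sorted cells. The sources used here do not give the age or strain background of the mice. Each of the 4 groups, wild-type A5-negative, wild-type A5-positive, RORγt-deficient A5-negative and RORγt-deficient A5-positive, had 3 libraries numbered 1 to 3. Where single libraries are named below, those of A5-negative and A5-positive cells are called negative and positive libraries.

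In G1, the origin recognition complex with Cdc6 and Cdt1 loads rings of the MCM helicase onto DNA. E2F transcription factors, released when cyclin-dependent kinases phosphorylate the retinoblastoma protein, then switch on most of the genes needed for S phase. Cdc45 and the GINS complex turn the loaded rings into working helicases, polymerases copy both strands, and checkpoint proteins watch over stalled forks. In wounded epidermis, cell division is classically placed behind the leading tip of the migrating sheet.

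Total counts per library ran from 29293687 to 74563616. Among the members the lowest count in any library was 19 (Fen1) and the highest 20182 (Rrm1). Levels below are TMM-scaled CPM, that is, counts relative to the effective library size. Itga5, the gene of the sorted integrin subunit, measured 46.8 ± 4.92 CPM in wild-type A5-negative and 94.4 ± 8.33 CPM in wild-type A5-positive libraries (mean ± SD, n = 3), and 54.2 ± 6.92 and 122 ± 14.7 CPM in the RORγt-deficient pair of groups. Keratinocyte markers were high in every library, with a summed level of 36969 to 80219 CPM over 10 genes.

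The fibroblast marker list moved with A5 status too. All 14 of its genes were higher in A5-positive cells of both genotypes, and 11 passed the test in each (12 in wild-type and 13 in RORγt-deficient cells with the block). Their summed level was 1462 to 2148 CPM in wild-type A5-negative, 6475 to 10105 in wild-type A5-positive, 746 to 1843 in RORγt-deficient A5-negative and 11141 to 18605 CPM in RORγt-deficient A5-positive libraries, and no fibroblast marker was at 0 in all libraries of a group. Macrophage markers summed to 94.6 to 1542 CPM in wild-type and 94.3 to 630 CPM in RORγt-deficient A5-negative libraries, against 90.2 to 242 CPM over the A5-positive libraries. Over all 12 libraries the summed levels were 294 to 3633 CPM for Langerhans and dendritic cell markers, 3.99 to 18.1 for T cells, 1.23 to 39.3 for endothelium, 3.71 to 19.9 for melanocytes and 9722 to 18935 CPM for hair follicle. The part of these cell types in the results on replication genes was not tested. Fewer cells in S phase and less RNA of these genes per cell cannot be told apart in such bulk libraries.

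Replication genes were mostly higher in A5-positive than in A5-negative keratinocytes of both genotypes. In wild-type cells 22 of the 47 rose and none fell at an adjusted p under 0.05, where 3.12% of all tested genes rose. In RORγt-deficient cells 25 of 47 rose and none fell, against 4.56% of all genes. The median log2 fold change of the members was 1.04 in wild-type and 0.94 in RORγt-deficient cells, beside 0.03 and 0.00 for all genes tested. These tests used edgeR's quasi-likelihood F test with Benjamini-Hochberg adjustment over all 16677 genes, so a p-value speaks of the spread among pooled samples of mice.

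Libraries with the same number in their titles were treated as pairs, across both genotypes. What equal numbers share, such as mice or a run, was not established. With the number as a block 37 members rose in wild-type cells, where 8.76% of all genes did. With the same block 33 rose in RORγt-deficient cells, against 10.1% of all genes. Without the block 21 members rose in both genotypes. Mcm4 passed in wild-type cells alone, and Mcm2, Rfc5, Dut and E2f1 passed in RORγt-deficient cells alone. The values of all 3 A5-positive libraries lay above those of all 3 A5-negative libraries for 35 members in wild-type cells, where 15.9% of all genes did so. The same held for 40 members in RORγt-deficient cells, against 14.3% of all genes. Within the 6 pairs of libraries that share genotype and number, 41 members were higher in the positive library every time. In a single pair 43 to 46 members were higher there, beside 48.1% to 53.8% of all tested genes. The share of all genes higher in all 6 pairs was not computed.

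**Figure D1:**
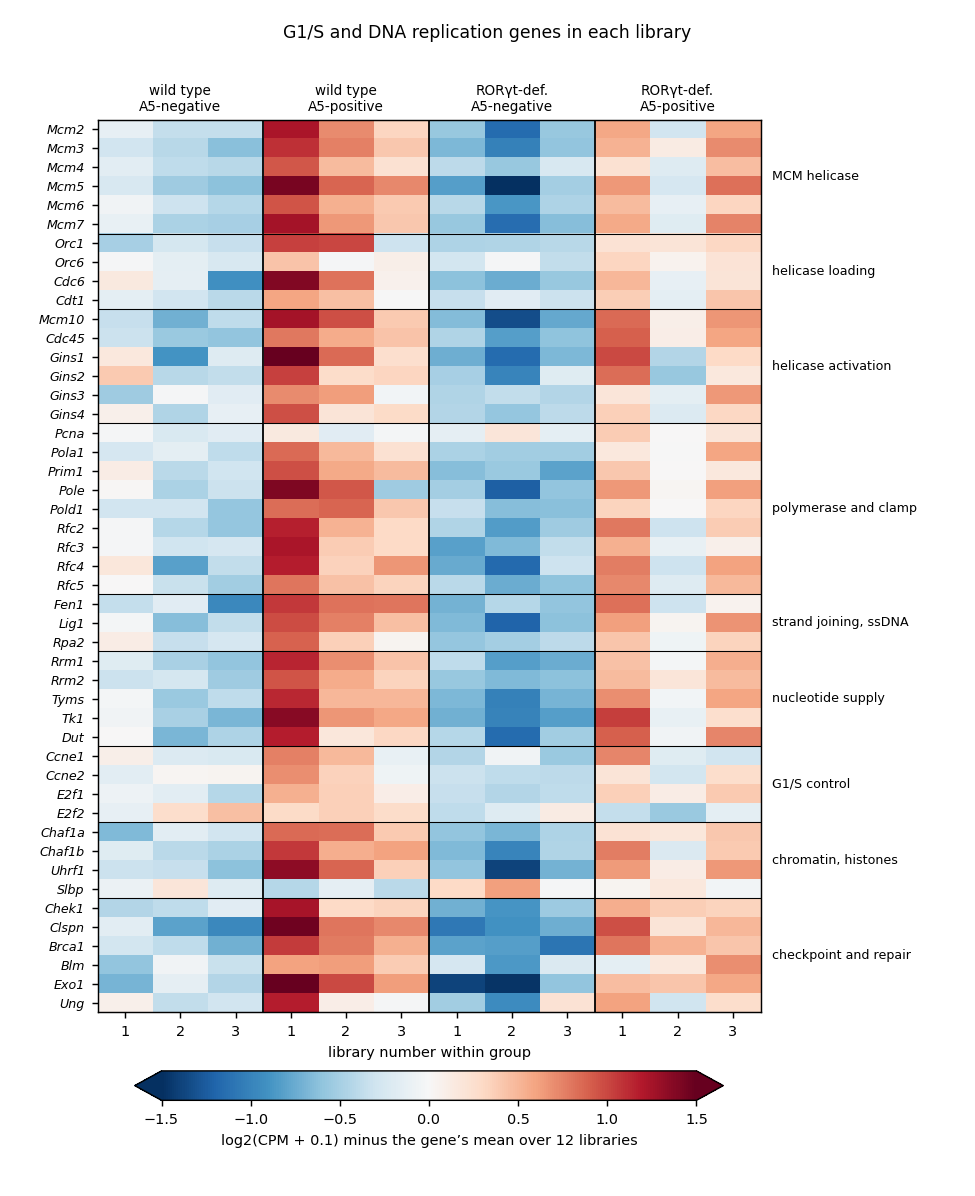
Level of the 47 replication genes (rows, grouped by role) in each of the 12 libraries (columns, numbered within the 4 groups), as log2(CPM + 0.1) minus the gene's mean over all libraries, from blue (low) to red (high). A5-positive libraries are mostly red and A5-negative ones mostly blue, with Slbp, E2f2 and Pcna as rows that depart from this.

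Single libraries differed within a group. The median member, centred on its mean over all libraries on the log2 scale, stood at 1.03, 0.56 and 0.33 in wild-type A5-positive libraries 1, 2 and 3 and at −0.12, −0.35 and −0.38 in the wild-type A5-negative ones. In RORγt-deficient cells it stood at 0.53, −0.05 and 0.40 in the A5-positive and at −0.53, −0.83 and −0.53 in the A5-negative libraries. Library 1 was thus the highest of wild-type A5-positive cells, and library 2 the lowest of both RORγt-deficient groups. No positive library reached down to the A5-negative libraries of its own genotype in this median.

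Of the MCM ring, whose 6 subunits unwind DNA at the fork, 5 rose in each genotype. Mcm3, Mcm4, Mcm5, Mcm6 and Mcm7 rose in wild-type cells, and all but Mcm4 of the 6 rose in RORγt-deficient cells. The median log2 fold change of the 6 was 1.12 and 1.14. Mcm3 (ENSMUSG00000041859.10, GRCm38 chr1:20802968-20820312, protein coding) measured 63.8, 58.6 and 50.5 CPM in wild-type A5-negative libraries 1, 2 and 3 and 167, 132 and 104 CPM in the A5-positive ones. In RORγt-deficient cells its levels were 49, 38.8 and 51.6 CPM and 112, 85.4 and 127 CPM in the same order. The groups did not overlap in either genotype, and the log2 fold change was 1.22 ± 0.2 (± SE, adjusted p = 0.00708) in wild-type and 1.22 ± 0.2 (adjusted p = 0.00363) in RORγt-deficient cells. Mcm3 stayed past the threshold when any single library was left out.

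Mcm5 (ENSMUSG00000005410.6, chr8:75109569-75128439) had the largest fold change of the ring. Its levels were 83.1, 67.9 and 64 CPM in A5-negative pools and 263, 181 and 162 CPM in A5-positive wild-type libraries, a log2 fold change of 1.49 ± 0.31 (adjusted p = 0.0214). RORγt-deficient libraries gave 55.3, 34.1 and 68.8 CPM and 154, 82.4 and 173 CPM, a log2 fold change of 1.37 ± 0.31 (adjusted p = 0.0216). Its positive library 2 of RORγt-deficient mice, at 82.4 CPM, was the lowest of the 6 A5-positive libraries and still above every negative library of its genotype. The wild-type call was lost without negative library 2 or 3 or positive library 1, with an adjusted p of up to 0.117. The RORγt-deficient call was lost without negative library 1 or 2 or positive library 1 or 3, with up to 0.1.

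Mcm2 had the weakest evidence of the 6 in wild-type cells. It measured 71.6, 61 and 60.9 CPM in A5-negative pools and 182, 127 and 97.2 CPM in A5-positive wild-type libraries, which did not overlap. The change was 1.07 ± 0.27 (adjusted p = 0.053), and it passed with the replicate block (adjusted p = 0.00907) and without wild-type positive library 3 or RORγt-deficient positive library 2 (as low as 0.0302). In RORγt-deficient libraries Mcm2 went from 52.4, 35 and 52.7 CPM to 117, 63.8 and 117 CPM (1.09 ± 0.27, adjusted p = 0.0363). That call was lost without any 1 of the RORγt-deficient libraries except positive library 2, with up to 0.152. Mcm4 measured 85, 72.8 and 71.2 CPM in A5-negative pools and 181, 132 and 112 CPM in A5-positive wild-type libraries (0.89 ± 0.2, adjusted p = 0.0315). In RORγt-deficient cells it measured 72.5, 64 and 80.7 CPM and 112, 83.4 and 131 CPM (0.59 ± 0.2, adjusted p = 0.117, and 0.0373 with the block). The wild-type call of Mcm4 held in 3 of the 12 fits that left out 1 library, those without wild-type positive library 3 or RORγt-deficient positive library 2 or 3, and reached 0.144 in the others. The remaining pair, Mcm6 and Mcm7, changed by 0.9 ± 0.2 and 1.16 ± 0.27 in wild-type and by 0.82 ± 0.2 and 1.2 ± 0.27 in RORγt-deficient cells.

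Promoter sequences are shown for 4 of these helicase genes and for the clamp gene Pcna, since these helicase genes rose in both genotypes and Pcna passed in neither. RefSeq promoters (GRCm38.p6, 250 bases before to 50 after the start) were available for 39 of the 47 members. They were searched on both strands for the E2F letters TTTCCCGC, TTTCGCGC, TTTGCCGC and TTTGGCGC, which may overlap each other. The letters were in 15 of 39 members (38.5%) and in 704 of the 27025 genes of the table (2.61%). In the narrower window of 100 bases before to 50 after the start the shares were 28.2% and 1.45%. Each line gives 170 bases before to 50 after the start, 5′ to 3′ on the gene's strand, with E2F letters of either strand in capitals: Mcm3 at chr1:20820263-20820482 (minus strand), Mcm5 at chr8:75109339-75109558 (plus), Mcm6 at chr1:128359656-128359875 (minus), Mcm7 at chr5:138171834-138172053 (minus) and Pcna at chr2:132253131-132253350 (minus).
Mcm3: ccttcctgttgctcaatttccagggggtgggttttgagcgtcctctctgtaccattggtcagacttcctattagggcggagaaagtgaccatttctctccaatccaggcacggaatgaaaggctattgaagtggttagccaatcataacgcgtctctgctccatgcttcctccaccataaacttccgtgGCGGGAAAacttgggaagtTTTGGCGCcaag
Mcm5: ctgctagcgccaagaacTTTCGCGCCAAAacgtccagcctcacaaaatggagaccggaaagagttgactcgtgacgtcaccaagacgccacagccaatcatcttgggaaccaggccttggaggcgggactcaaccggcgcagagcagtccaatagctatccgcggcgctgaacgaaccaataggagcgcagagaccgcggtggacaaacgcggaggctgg
Mcm6: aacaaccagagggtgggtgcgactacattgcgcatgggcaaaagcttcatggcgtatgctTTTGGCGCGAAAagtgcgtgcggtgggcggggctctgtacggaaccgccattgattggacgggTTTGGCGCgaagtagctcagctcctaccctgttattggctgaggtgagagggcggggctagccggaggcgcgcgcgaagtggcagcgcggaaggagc
Mcm7: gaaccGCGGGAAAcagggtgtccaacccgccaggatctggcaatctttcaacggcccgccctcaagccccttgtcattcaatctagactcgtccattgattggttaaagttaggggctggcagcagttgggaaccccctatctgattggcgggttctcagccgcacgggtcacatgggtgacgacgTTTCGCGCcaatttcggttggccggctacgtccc
Pcna: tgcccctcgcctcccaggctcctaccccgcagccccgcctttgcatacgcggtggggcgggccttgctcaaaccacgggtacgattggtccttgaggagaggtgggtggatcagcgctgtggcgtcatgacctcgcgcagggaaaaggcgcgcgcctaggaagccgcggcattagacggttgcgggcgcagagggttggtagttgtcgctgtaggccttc
The windows of Mcm3, Mcm5 and Mcm7 hold 2 matches each and that of Mcm6 holds 3. A capital run of 12 bases in Mcm5 and in Mcm6 is an overlapping pair, read on opposite strands. No match lies in the window printed for Pcna. A second promoter of Mcm7 holds no E2F letters and is not printed. The genes printed were picked by their calls, so they do not show how the letters go with the A5 effect over all members.

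Members with and without the E2F letters had similar A5 effects, which was not tested. The 15 members with them (Cdc6, Cdt1, Clspn, E2f2, Gins3, Lig1, Mcm3, Mcm5, Mcm6, Mcm7, Orc1, Pola1, Pold1, Rfc3 and Uhrf1) had a median log2 fold change of 1.07 in wild-type and 0.82 in RORγt-deficient cells. The 24 members whose promoter lacked them had medians of 1.02 and 0.97. Of the first set 9 rose in each genotype, and of the second 11 rose in wild-type and 15 in RORγt-deficient cells. The letters CCAAT, the core of the NF-Y site, were in 24 of 39 members (61.5%) and in 41.1% of all genes of the table. The letters TTTGAA, the core of the element bound by the late cell cycle complex, were in 5 of 39 members (12.8%), in 20.2% of all genes and in 16 of 22 mitosis genes (72.7%). A match is a run of letters and no measured binding.

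None of the 4 factors that load the ring (Orc1, Orc6, Cdc6 and Cdt1) passed without the block in either genotype. Orc1, the largest subunit of the origin recognition complex, measured 5.77, 6.78 and 6.42 CPM in A5-negative pools and 16.7, 16.5 and 6.56 CPM in A5-positive wild-type libraries. Positive library 3 lay among the A5-negative values, while libraries 1 and 2 lay well above them. The change of 1.07 ± 0.28 had an adjusted p of 0.0633, of 0.0325 with the block and of 0.00205 without positive library 3. In RORγt-deficient cells Orc1 measured 5.93, 5.96 and 6.09 CPM and 9.56, 9.38 and 10.2 CPM, without overlap (0.7 ± 0.28, adjusted p = 0.18). That value passed without wild-type positive library 3 (0.0164), a library outside the contrast that bears on the shared estimate of spread.

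Cdt1, which brings the MCM ring to the origin and is removed once S phase begins, measured 31.9, 29 and 26.7 CPM and 53.3, 48.3 and 35.2 CPM in wild-type A5-negative and A5-positive libraries (0.64 ± 0.18, adjusted p = 0.0773, and 0.0321 with the block). RORγt-deficient libraries gave 27.9, 31.4 and 28.2 CPM and 45.8, 31.9 and 47.2 CPM (0.51 ± 0.18, adjusted p = 0.128). It passed in wild-type cells without positive library 3 (0.0365) and in RORγt-deficient cells without positive library 2 (0.0374). Cdc6, the ATPase that acts with Cdt1, had a log2 fold change of 1.11 ± 0.35 in wild-type cells (adjusted p = 0.108, and 0.0269 with the block) and 0.88 ± 0.35 in RORγt-deficient cells (adjusted p = 0.175). Orc6, the smallest subunit of the origin complex, passed neither with nor without the block. Its levels were 19.9, 18.2 and 17.1 CPM and 27.1, 20.02 and 21.5 CPM in wild-type and 16.6, 19.9 and 15.6 CPM and 25.2, 20.9 and 23.2 CPM in RORγt-deficient A5-negative and A5-positive libraries. Its groups did not overlap, but the gap was small (0.31 ± 0.16, adjusted p = 0.279, and 0.41 ± 0.16, adjusted p = 0.157).

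Of the 6 genes that start the helicase, Mcm10 and Cdc45 rose in both genotypes. Mcm10, which helps to switch on the loaded ring, measured 6.81, 5.23 and 6.68 CPM in A5-negative pools and 20.9, 17.1 and 11.4 CPM in A5-positive wild-type libraries (1.4 ± 0.28, adjusted p = 0.0189). In RORγt-deficient libraries it measured 5.51, 3.41 and 5.08 CPM and 15.7, 9.23 and 13.9 CPM (1.47 ± 0.28, adjusted p = 0.00898). Cdc45, a subunit of the working helicase, measured 11, 9.35 and 9.14 CPM and 23.9, 20.3 and 18.6 CPM in wild-type cells (1.09 ± 0.21, adjusted p = 0.0139). Its RORγt-deficient values were 10.02, 7.7 and 9.01 CPM and 25.6, 14.7 and 20.9 CPM (1.2 ± 0.21, adjusted p = 0.00497). Both genes were separate between A5-negative and A5-positive libraries in each genotype and kept their RORγt-deficient call without any single library. Both lost the wild-type call without negative library 2 or 3 or positive library 1, with up to 0.0753 for Mcm10 and 0.0799 for Cdc45.

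The 4 GINS genes, whose complex joins Cdc45 on the MCM ring, did not pass without the block. Gins1 had a log2 fold change of 1.24 ± 0.42 in wild-type and 1.27 ± 0.42 in RORγt-deficient cells (adjusted p 0.128 and 0.11, with the block 0.0188 and 0.0199). Gins4 had log2 fold changes of 0.68 ± 0.23 and 0.65 ± 0.23 (adjusted p 0.129 and 0.13, with the block 0.0199 and 0.02). Gins2 and Gins3 passed neither with nor without the block, though Gins2 did in RORγt-deficient cells with genotype and number as 1 block (adjusted p = 0.0412). Gins2 measured 17.8, 10.1 and 10.4 CPM and 27.7, 16.4 and 17 CPM in wild-type and 9.52, 6.79 and 12 CPM and 24.4, 9.13 and 15.1 CPM in RORγt-deficient A5-negative and A5-positive libraries, overlapping in both (0.67 ± 0.36 and 0.79 ± 0.37). Its exons share 67.3% of their length with Gse1 on the other strand, and since no strand setting is given, its reads are uncertain. Gins3 measured 2.71, 3.93 and 3.51 CPM and 6.53, 6.18 and 3.84 CPM in wild-type cells (0.71 ± 0.28, adjusted p = 0.176), with positive library 3 among the A5-negative values. RORγt-deficient cells had 2.88, 3.04 and 2.89 CPM and 4.51, 3.56 and 6.27 CPM (0.7 ± 0.28, adjusted p = 0.169).

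Among the 9 genes of the polymerases, the sliding clamp and its loader, Pold1, Prim1 and Pola1 rose in both genotypes and Rfc5 rose in RORγt-deficient cells. Pold1 (ENSMUSG00000038644.14, chr7:44532746-44548849), the catalytic subunit of the lagging-strand polymerase delta, measured 38.8, 38.9 and 31.7 CPM in A5-negative pools and 84.8, 87.1 and 62.8 CPM in A5-positive wild-type libraries (1.1 ± 0.16, adjusted p = 0.00397). RORγt-deficient libraries gave 37.2, 30.5 and 30.8 CPM and 59.7, 47.8 and 59.5 CPM (0.76 ± 0.16, adjusted p = 0.0163). The groups were separate in both genotypes, and the wild-type call held without any single library. The RORγt-deficient call was lost without negative library 2 or 3 or positive library 1 or 3, with up to 0.0868.

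Prim1 (chr10:128015168-128030037), the primase that lays down RNA primers, measured 22.1, 15.3 and 16.6 CPM and 39.9, 30.2 and 28.3 CPM in wild-type A5-negative and A5-positive libraries (0.87 ± 0.19, adjusted p = 0.0252). In RORγt-deficient cells it measured 13, 13.9 and 11.7 CPM and 27, 20.5 and 22.8 CPM (0.87 ± 0.19, adjusted p = 0.0177). The groups did not overlap. The wild-type call was lost without wild-type negative library 2 or 3, wild-type positive library 1 or 2 or RORγt-deficient negative library 1 (up to 0.136). The RORγt-deficient call was lost without any 1 library of that genotype except positive library 2 (up to 0.0866). Pola1, the catalytic subunit of the priming polymerase, changed by 0.8 ± 0.19 and 0.78 ± 0.19 (adjusted p 0.0361 and 0.0299). Pole, of the leading-strand polymerase, had log2 fold changes of 1.06 ± 0.39 and 1.21 ± 0.39, with adjusted p of 0.152 and 0.101. With the block it was 0.0671 and 0.0316.

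Pcna (ENSMUSG00000027342.14, chr2:132249162-132253314), the sliding clamp that is often stained as a mark of dividing cells, passed in neither genotype. It measured 70.3, 60.9 and 63.2 CPM in wild-type A5-negative and 79, 63.4 and 69.998 CPM in wild-type A5-positive libraries, with overlap. Its RORγt-deficient levels were 65, 80.7 and 64.5 CPM and 92.8, 71.8 and 81.1 CPM, also with overlap. The log2 fold change was 0.13 ± 0.14 (adjusted p = 0.63), with a 95% interval of −0.18 to 0.43, in wild-type cells. In RORγt-deficient cells it was 0.22 ± 0.14 (adjusted p = 0.364), with an interval of −0.08 to 0.53. Both intervals end below the median member change of 1.04 and 0.94. Reads of Pcna can be shared with processed copies elsewhere in the genome, of which Pcna-ps2 held 17 to 70 counts and Pcna-ps1 held 0 in every library. The sources used here do not say how such reads were treated.

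The clamp loader subunits Rfc2, Rfc3, Rfc4 and Rfc5 had log2 fold changes of 1.03 ± 0.28, 0.89 ± 0.27, 1.06 ± 0.35 and 0.81 ± 0.23 in wild-type cells. None of these passed without the block (adjusted p 0.0687, 0.0891, 0.119 and 0.0757), and all 4 passed with it (0.00572, 0.0284, 0.00659 and 0.00821). In RORγt-deficient cells Rfc5 rose by 0.97 ± 0.23 (adjusted p = 0.0285), and the other 3 passed with the block alone (0.00662, 0.0386 and 0.00425).

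**Figure D2:**
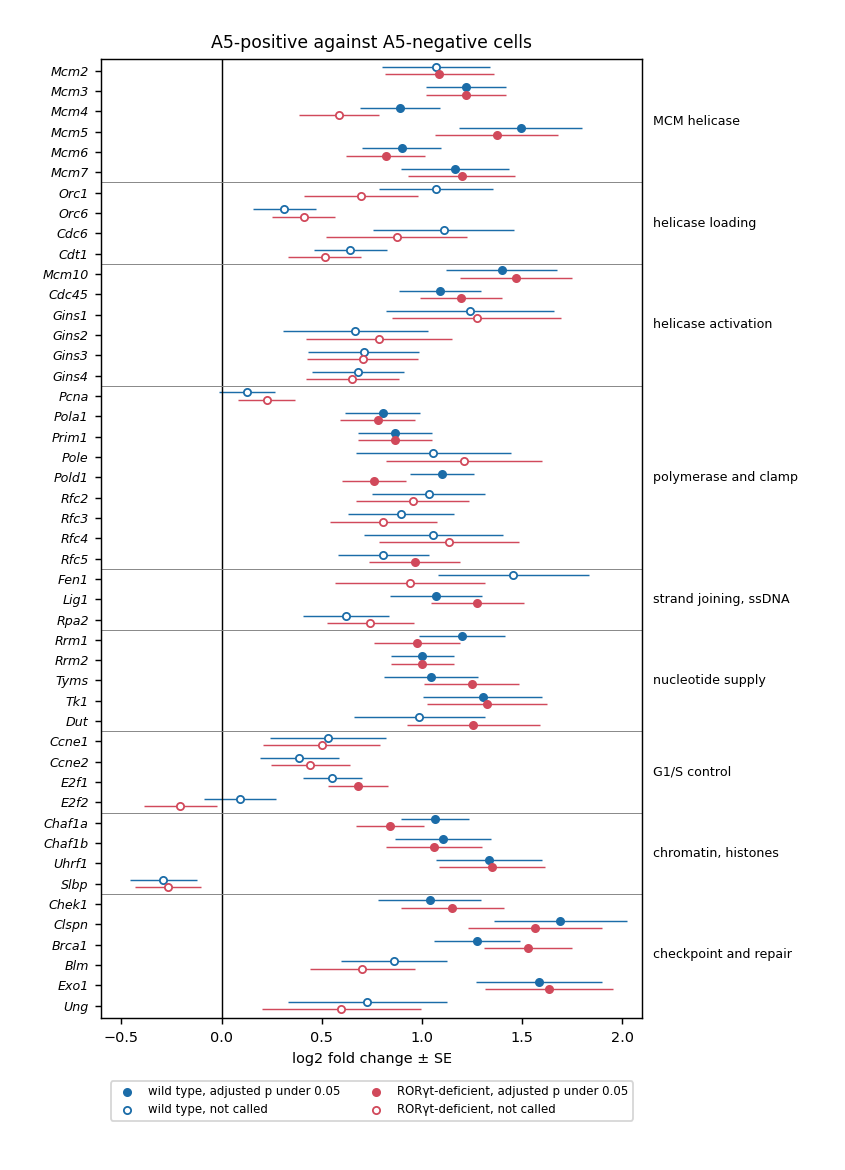
Log2 fold change of each of the 47 genes between A5-positive and A5-negative cells, with its SE as a bar, for wild-type and RORγt-deficient mice. Filled points have an adjusted p under 0.05 (22 and 25 genes), most values lie near 1, Slbp is below 0 in both genotypes, and E2f2 is below 0 in RORγt-deficient cells.

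Lig1, the ligase that seals Okazaki fragments, rose in both genotypes. It measured 30.8, 20.3 and 24.5 CPM and 62.2, 53.4 and 43 CPM in wild-type A5-negative and A5-positive libraries (1.07 ± 0.23, adjusted p = 0.0252). In RORγt-deficient cells the levels were 19.9, 13.7 and 20.5 CPM and 48.2, 32.6 and 50.4 CPM (1.28 ± 0.23, adjusted p = 0.00652), and this call held without any single library. The wild-type call was lost without negative library 2 or 3 or positive library 1 or 2, with up to 0.122. Rpa2, a subunit of the complex that coats single-stranded DNA, measured 27.8, 20.1 and 21.6 CPM and 47.6, 32.9 and 26.5 CPM in wild-type cells, with overlap (0.62 ± 0.21, adjusted p = 0.135, and 0.0408 with the block). Its RORγt-deficient groups were separate, at 17.1, 18 and 19.5 CPM and 34.3, 24.5 and 32.4 CPM (0.74 ± 0.22, adjusted p = 0.0712, and 0.0188 with the block). Without wild-type positive library 1 or 3 or RORγt-deficient positive library 2 it passed there, at as low as 0.0228.

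Fen1, the nuclease that trims Okazaki fragments, had the lowest counts of the members. It measured 0.878, 1.02 and 0.542 CPM and 2.52, 2.1 and 2.09 CPM in wild-type A5-negative and A5-positive libraries (1.46 ± 0.38, adjusted p = 0.058, 0.0254 with the block and 0.0466 without RORγt-deficient positive library 1). RORγt-deficient libraries gave 0.665, 0.831 and 0.73 CPM and 2.13, 0.913 and 1.2 CPM (0.94 ± 0.38, adjusted p = 0.174). Its exons share 78.8% of their length with Gm10143 on the other strand, so its counts are uncertain.

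All 5 genes of nucleotide supply rose in RORγt-deficient cells, and all but Dut rose in wild-type cells. Rrm2 (ENSMUSG00000020649.11, chr12:24708241-24714146), the S-phase subunit of ribonucleotide reductase, measured 92.1, 95.9 and 80.1 CPM in A5-negative pools and 222, 169.7 and 146 CPM in A5-positive wild-type libraries. RORγt-deficient libraries gave 77.8, 73.1 and 75.2 CPM and 160.3, 131 and 161 CPM. The level thus about doubled without overlap in both genotypes (1.0 ± 0.16, adjusted p = 0.0052, and 1.0 ± 0.16, adjusted p = 0.0026), and both calls held without any single library. Rrm1, the large subunit of the same enzyme, measured 140.4, 114 and 105 CPM and 353, 259 and 214 CPM in wild-type cells (1.2 ± 0.21, adjusted p = 0.0107, and 0.0691 without negative library 3). Its RORγt-deficient levels were 122, 89.6 and 95.3 CPM and 216, 156 and 232 CPM (0.98 ± 0.21, adjusted p = 0.0194). That call was lost without negative library 2 or 3 or positive library 1 or 3, with up to 0.0947.

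Dut, the enzyme that keeps dUTP out of DNA, measured 14.5, 8.96 and 10.5 CPM and 32.9, 16.3 and 18 CPM in wild-type A5-negative and A5-positive libraries. The groups were separate, with library 1 the highest of each (0.99 ± 0.33, adjusted p = 0.124, and 0.00568 with the block). In RORγt-deficient cells it rose from 10.7, 6.42 and 10.1 CPM to 26.9, 13.9 and 24.1 CPM (1.26 ± 0.33, adjusted p = 0.0473). This call was lost in 6 of 12 fits, those without wild-type negative library 3 or any RORγt-deficient library except positive library 2, with up to 0.187. Tyms, the thymidylate synthase, changed by 1.05 ± 0.24 and 1.25 ± 0.24 (adjusted p 0.0323 and 0.00912). Tk1, the thymidine kinase of dividing cells, changed by 1.3 ± 0.3 and 1.32 ± 0.3 (adjusted p 0.0349 and 0.0233).

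The 4 genes of G1/S control had the smallest median change of the roles, 0.46 in wild-type and 0.47 in RORγt-deficient cells. E2f1, an activating E2F factor and itself a target of E2F, rose in RORγt-deficient cells from 20.6, 19.2 and 20.03 CPM to 33.5, 28.2 and 34.2 CPM (0.68 ± 0.15, adjusted p = 0.0194). That call was lost without any 1 library of that genotype except positive library 2, with up to 0.091. In wild-type cells it measured 24.8, 23.4 and 19.3 CPM and 37.7, 33.4 and 27.9 CPM, without overlap (0.55 ± 0.15, adjusted p = 0.0654, and 0.0205 with the block). The E-type cyclins, partners of CDK2 at the start of S phase, passed neither with nor without the block. Ccne1 measured 15.9, 12.9 and 12.7 CPM and 25.3, 20.9 and 13.7 CPM in wild-type and 10.9, 14.4 and 10.1 CPM and 24.8, 13.1 and 12.1 CPM in RORγt-deficient A5-negative and A5-positive libraries (0.53 ± 0.29 and 0.5 ± 0.29). In RORγt-deficient A5-positive cells library 1 stood at 24.8 CPM, and libraries 2 and 3 lay within the A5-negative range.

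Ccne2 measured 16.6, 18.9 and 19 CPM and 30.04, 23.6 and 17.6 CPM in wild-type cells, with overlap, and 14.8, 14.2 and 14.1 CPM and 21.2, 15.3 and 22.1 CPM in RORγt-deficient cells, without (0.39 ± 0.2 and 0.44 ± 0.2, adjusted p 0.285 and 0.215). E2f2 (chr4:136172394-136196057), another activating E2F factor, did not pass in the A5 effect, with or without the block. It measured 18.6, 24.4 and 27.7 CPM and 24.7, 26.1 and 24.5 CPM in wild-type and 15.6, 17.8 and 22.1 CPM and 15.9, 13.8 and 18.3 CPM in RORγt-deficient A5-negative and A5-positive libraries. The groups overlapped in both genotypes (0.09 ± 0.18, adjusted p = 0.799, and −0.21 ± 0.18, adjusted p = 0.525). The 95% intervals were −0.3 to 0.49 and −0.6 to 0.19. In 3 of the 6 pairs of libraries it was higher in the A5-positive one.

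**Figure D3:**
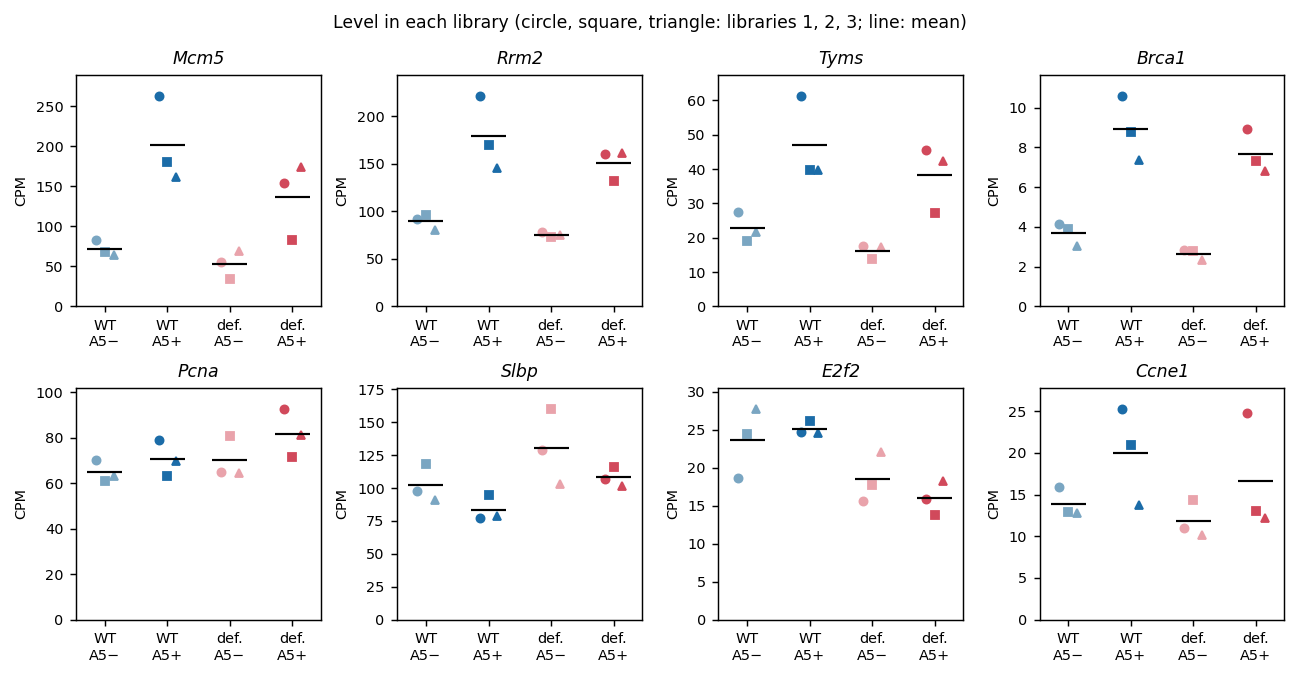
Level in CPM of Mcm5, Rrm2, Tyms, Brca1, Pcna, Slbp, E2f2 and Ccne1 in each library of the 4 groups, with circles, squares and triangles for libraries 1, 2 and 3 and a line at the group mean. The first 4 genes are higher in A5-positive cells without overlap, while Pcna, Slbp, E2f2 and Ccne1 overlap between A5-negative and A5-positive cells of a genotype.

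Among the 4 genes of new chromatin, 3 rose in both genotypes, and Slbp had the opposite sign without passing. Chaf1a, the large subunit of the assembly factor that sets histones on new DNA, measured 15.5, 22.1 and 20.2 CPM and 44.7, 44.2 and 32.4 CPM in wild-type A5-negative and A5-positive libraries (1.07 ± 0.17, adjusted p = 0.00601), a call that held without any single library. RORγt-deficient cells had 16.4, 15.4 and 18 CPM and 28.7, 27.7 and 32.7 CPM (0.84 ± 0.17, adjusted p = 0.0126). This was lost without negative library 1 or 2 or positive library 3, with up to 0.0705. Its exons share 52.5% of their length with Ubxn6 on the other strand, which makes its counts uncertain. Its partner Chaf1b changed by 1.11 ± 0.24 and 1.06 ± 0.24 (adjusted p 0.0275 and 0.0238).

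Uhrf1, which carries DNA methylation over to the new strand, measured 43.5, 42.9 and 35.6 CPM and 138, 99.4 and 69.6 CPM in wild-type A5-negative and A5-positive libraries (1.33 ± 0.26, adjusted p = 0.019). RORγt-deficient libraries gave 36.1, 20.6 and 33.1 CPM and 85.1, 58.8 and 85.4 CPM (1.35 ± 0.27, adjusted p = 0.0109). Both comparisons were free of overlap. The wild-type call was lost without negative library 2 or 3 or positive library 1 (up to 0.103), and the RORγt-deficient one without negative library 2 or positive library 1 (up to 0.051). Slbp, the protein that binds the stem-loop of histone messages, measured 97.8, 118 and 91.2 CPM and 77.5, 94.9 and 78.7 CPM in wild-type and 129, 160.2 and 103 CPM and 107, 116 and 102 CPM in RORγt-deficient A5-negative and A5-positive libraries. It was lower in the positive library of all 6 pairs, but the groups overlapped, and it did not pass with or without the block (−0.29 ± 0.17, adjusted p = 0.339, and −0.27 ± 0.17, adjusted p = 0.359).

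Of the 6 checkpoint and repair genes, Chek1, Clspn, Brca1 and Exo1 rose in both genotypes. Brca1 (ENSMUSG00000017146.12, chr11:101488764-101551955), which acts in fork protection and recombination, measured 4.16, 3.87 and 3.03 CPM and 10.6, 8.8 and 7.37 CPM in wild-type A5-negative and A5-positive libraries (1.28 ± 0.22, adjusted p = 0.00816). Its RORγt-deficient levels were 2.85, 2.81 and 2.32 CPM and 8.94, 7.34 and 6.8 CPM (1.53 ± 0.22, adjusted p = 0.00152), the smallest adjusted p of the members. That call held without any single library, and the wild-type one was lost without negative library 3 (0.0576). Clspn, the mediator that passes the stalled-fork signal to Chek1, had the largest wild-type fold change of the members. It measured 2.13, 1.33 and 1.17 CPM and 6.74, 4.26 and 4.0 CPM in wild-type cells (1.69 ± 0.33, adjusted p = 0.0183) and 1.09, 1.23 and 1.4 CPM and 4.77, 2.74 and 3.42 CPM in RORγt-deficient cells (1.56 ± 0.33, adjusted p = 0.0171). The first call was lost without negative library 2 or 3 or positive library 1 (up to 0.101). The second was lost without any 1 of the 3 A5-negative libraries or positive library 1 (up to 0.0835).

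Exo1, the exonuclease of mismatch repair and end resection, measured 2.76, 4.15 and 3.34 CPM and 14.4, 9.13 and 7.1 CPM in wild-type A5-negative and A5-positive libraries (1.58 ± 0.31, adjusted p = 0.0189). In RORγt-deficient cells it measured 1.68, 1.58 and 2.98 CPM and 6.29, 6.12 and 6.88 CPM (1.63 ± 0.32, adjusted p = 0.0103). The groups were separate in both. The wild-type call was lost without negative library 1 or 3 or positive library 1 (up to 0.0955), and the RORγt-deficient call without negative library 1 or 2 (up to 0.0586). Chek1, the checkpoint kinase, changed by 1.04 ± 0.26 and 1.15 ± 0.26 (adjusted p 0.0475 and 0.022). Blm, a helicase that takes apart joined strands, had log2 fold changes of 0.86 ± 0.26 and 0.7 ± 0.26 (adjusted p 0.0985 and 0.148, with the block 0.0443 and 0.0905). Ung, which removes uracil from DNA, measured 3.66, 2.66 and 2.83 CPM and 7.95, 3.72 and 3.43 CPM in wild-type and 2.38, 1.75 and 4.03 CPM and 5.3, 2.8 and 4.18 CPM in RORγt-deficient A5-negative and A5-positive libraries. The groups overlapped, and it did not pass with or without the block (0.73 ± 0.4 and 0.6 ± 0.4).

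Counts of members past the threshold changed when 1 library was left out, in fits that also had fewer libraries to test with. The share of all genes passing in such fits is not given here, so these counts are not set against it. In wild-type cells the 22 became 4 without negative library 3, 7 without negative library 2, 6 without positive library 1 and 13 without RORγt-deficient negative library 1. In RORγt-deficient cells the 25 became 10, 6 and 12 without negative library 1, 2 or 3 and 9 and 11 without positive library 1 or 3. The calls of 4 members in wild-type cells (Chaf1a, Mcm3, Pold1 and Rrm2) and of 6 in RORγt-deficient cells (Brca1, Cdc45, Lig1, Mcm10, Mcm3 and Rrm2) held in all 12 such fits. With the block, 20 of 37 and 23 of 33 calls did, and the wild-type count became 24 without negative library 1 and 20 without negative library 3. Pair by pair, the median member was higher in the positive library by 1.18, 0.95 and 0.77 in wild-type pairs 1, 2 and 3 and by 1.15, 0.74 and 0.92 in RORγt-deficient pairs.

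Compared between genes, levels per length spread widely. Per kilobase of merged exons, wild-type A5-negative cells had the highest levels of Rrm2 (32.3 CPM per kilobase), Pcna (27), Mcm6 (21.5) and Mcm4 (21.3). Lowest were Clspn (0.215), Fen1 (0.336, from counts called uncertain above), Exo1 (0.406) and Brca1 (0.432). In wild-type A5-positive cells Rrm2 was at 64.6, Mcm5 at 50.6, Mcm6 at 40.1, Mcm4 at 39.4, Mcm3 at 35.8 and Pcna at 29.5 CPM per kilobase. Pcna, next to Rrm2 in wild-type A5-negative cells, thus lay below these 4 MCM genes in wild-type A5-positive cells. This order did not hold in RORγt-deficient A5-positive cells. There Pcna, at 34.1 CPM per kilobase, was near Mcm5 (34.2) and above Mcm6 (30.5), Mcm4 (30.3) and Mcm3 (28.9).

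Whether RORγt deficiency changed the A5 contrast was asked with the interaction of A5 status and genotype. No member passed with edgeR (0% of all genes did), DESeq2 or limma voom. None had an unadjusted p under 0.05 in edgeR, as 2.75% of all genes did. The difference between the genotypes' log2 fold changes ran from −0.52 to 0.27 over the 47, and every 95% interval held 0. The intervals of 35 members lay within 1 of 0 on the log2 scale, and those of the others reached as far as −1.68 and 1.35. The smallest p was that of Pold1 (0.158), which rose by 1.1 in wild-type and 0.76 in RORγt-deficient cells, a difference of −0.34 ± 0.23. Next came E2f2 (−0.3 ± 0.26) and Mcm4 (−0.3 ± 0.28). For those 35, a difference as large as a doubling lay outside the interval.

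The genotypes were then compared within each fraction. In A5-negative cells no member passed in edgeR, DESeq2 or limma voom (0.006% of all genes passed in edgeR), and 2 were lower at an unadjusted p under 0.05, which 5.09% of all genes reached in either direction. In A5-positive cells no member passed in edgeR or limma voom (0.006% of all genes passed in edgeR), 5 were lower and 1, Slbp, was higher at an unadjusted p under 0.05, which 15% of all genes reached. DESeq2 called 1 of them, E2f2, lower, but it also called far more of all genes here than edgeR did (counts in the last paragraph). With the replicate block edgeR called E2f2 lower too, where 4.02% of all genes passed in either direction, and 15 members had an unadjusted p under 0.05, which 24.8% of all genes reached. With the block none passed in A5-negative cells, where 11 members and 15.1% of all genes had an unadjusted p under 0.05.

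Most point estimates were below 0 all the same. In A5-negative cells 45 of 47 members were lower in RORγt-deficient mice, with a median log2 fold change of −0.33 beside 0.00 for all genes. In A5-positive cells 44 of 47 were lower, with a median of −0.35. All RORγt-deficient A5-negative libraries lay below all wild-type ones for 13 members, where 8.26% of all genes did so. In A5-positive cells this held for 4 members, Prim1, Pold1, E2f2 and Exo1, against 9.01% of all genes, and Slbp was separate in the other direction. The 95% interval reached below −1 for 16 members in A5-negative and 15 in A5-positive cells, so a fall by 1 on the log2 scale lay inside the interval for those.

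Library pairs differed in this comparison. Between libraries of the same number, the median member of RORγt-deficient A5-negative cells was at −0.41, −0.41 and −0.10 relative to wild type in numbers 1, 2 and 3. In A5-positive cells it was at −0.50, −0.65 and 0.13, so number 3 had the opposite sign, with 15 of 47 members below 0. In a single pair 48.1% to 51.7% of all tested genes were below 0. In all 6 such pairs 8 members (Mcm6, Prim1, Pold1, Rfc3, Tk1, E2f2, Brca1 and Exo1) were lower in RORγt-deficient cells, and Slbp was higher. The share of all genes lower in all 6 was not computed.

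E2f2 had the smallest p in the A5-positive comparison. Wild-type A5-positive libraries stood at 24.7, 26.1 and 24.5 CPM and RORγt-deficient ones at 15.9, 13.8 and 18.3 CPM, without overlap. The log2 fold change was −0.65 ± 0.18 (adjusted p = 0.198 in edgeR), and it passed with the replicate block (−0.66, adjusted p = 0.0399) and in DESeq2 (−0.63, adjusted p = 0.0401). With the block and 1 library left out, no member passed in 9 of 12 fits, 1 passed without wild-type negative library 1, 3 without RORγt-deficient negative library 1 and 4 without wild-type positive library 3. In A5-negative cells the change was −0.35 ± 0.18 (adjusted p = 0.779), with overlap. Prim1 measured 18 ± 3.59 CPM in wild-type and 12.9 ± 1.1 CPM in RORγt-deficient A5-negative libraries, and 32.8 ± 6.19 and 23.4 ± 3.26 CPM in A5-positive ones. Its changes of −0.49 ± 0.19 and −0.49 ± 0.18 had unadjusted p of 0.0223 and 0.0216 and adjusted p of 0.779 and 0.265.

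Exo1 had log2 fold changes of −0.72 ± 0.32 in A5-negative and −0.67 ± 0.31 in A5-positive cells (adjusted p 0.779 and 0.332), and Brca1 of −0.47 ± 0.22 and −0.22 ± 0.21 (adjusted p 0.779 and 0.654). Pold1 measured 78.2 ± 13.4 CPM in wild-type and 55.7 ± 6.81 CPM in RORγt-deficient A5-positive cells (−0.49 ± 0.16, adjusted p = 0.217). Chaf1a measured 40.4 ± 6.95 and 29.7 ± 2.64 CPM there (−0.45 ± 0.17, adjusted p = 0.264). Slbp went the other way, at 83.7 ± 9.7 CPM in wild-type and 108 ± 7.42 CPM in RORγt-deficient A5-positive libraries (0.37 ± 0.17, adjusted p = 0.319). None of these differences held up against the spread between libraries after adjustment.

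**Figure D4:**
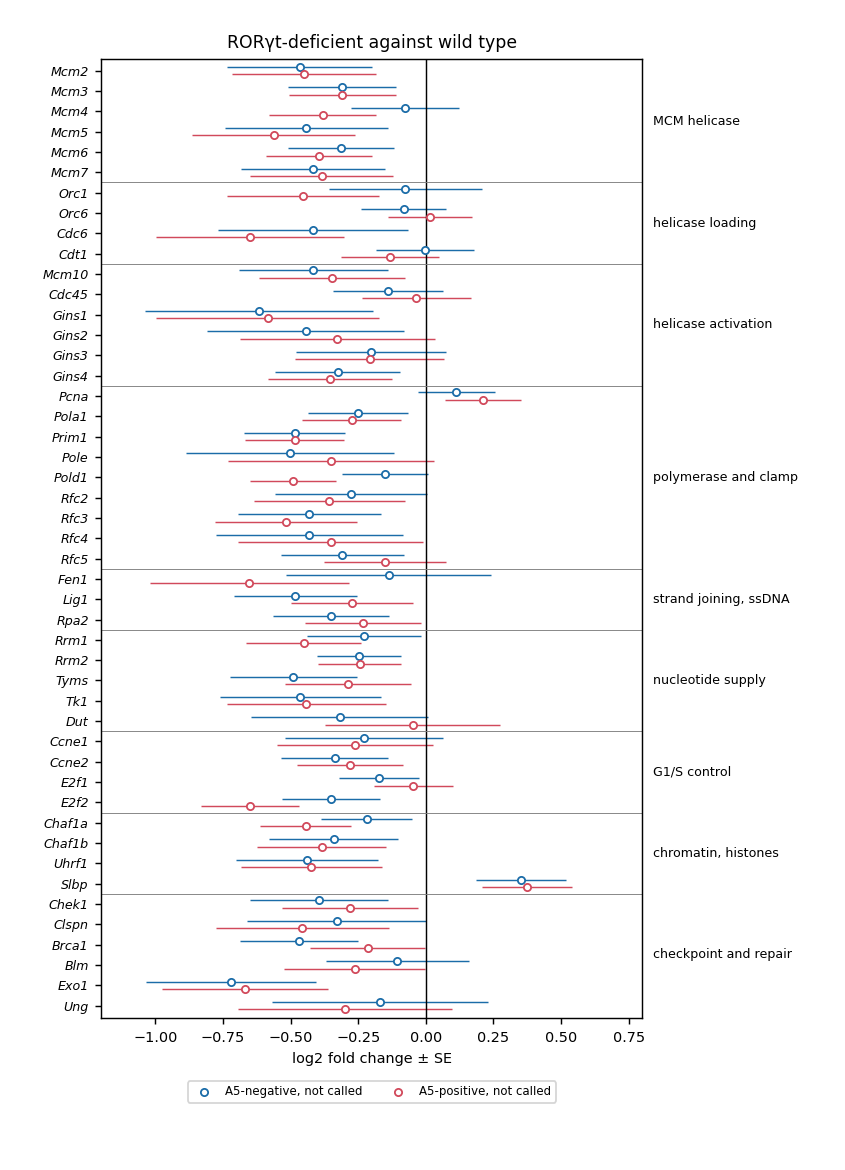
Log2 fold change of each of the 47 genes between RORγt-deficient and wild-type mice, with its SE as a bar, in A5-negative and A5-positive cells. All points are open, since none had an adjusted p under 0.05, and 45 and 44 of the 47 lie below 0.

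Other genes of the same pathway were read from further lists that hold none of the members. These lists too were drawn up with earlier results of these data known. Of 59 further replication and fork genes, 10 rose in wild-type and 15 in RORγt-deficient A5-positive cells and none fell, with medians of 0.53 and 0.55. With the block 27 and 24 rose. Beside these and the lists below, 3.12% of all tested genes rose in wild-type and 4.56% in RORγt-deficient cells. With the block the shares were 8.76% and 10.1%, and 933 and 1258 of the 16677 genes fell. Asf1b, a histone chaperone of S phase, went from 10.5 ± 2.17 to 29.96 ± 7.61 CPM in wild-type cells (1.52 ± 0.27, adjusted p = 0.00964). Chtf18, of an alternative clamp loader, rose by 1.11 ± 0.21 (adjusted p = 0.0147) in wild-type cells. Between genotypes Timeless, which holds the fork together, had a log2 fold change of −0.5 in A5-negative cells (adjusted p = 0.779), and Pole4, a small subunit of the leading-strand polymerase, one of 0.44 in A5-positive cells (adjusted p = 0.218).

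Of 16 G1 cyclin, CDK and E2F genes, 2 rose in wild-type cells (E2f7 and E2f8) and 2 in RORγt-deficient cells (E2f8 and Cks1b), with medians of 0.39 and 0.21. With the block 7 rose and Myc fell in wild-type cells, and 4 rose in RORγt-deficient cells (Ccnd1, Cdk4, Cks1b and E2f8). E2f8, a repressor E2F, rose by 1.12 ± 0.19 in wild-type cells (adjusted p = 0.00786). E2f7, its close relative, rose by 1.19 ± 0.23 (adjusted p = 0.0143) and had a log2 fold change of 0.34 ± 0.22 in RORγt-deficient cells (adjusted p = 0.381). The difference of −0.85 ± 0.32 between those had an adjusted p of 1. Ccnd1, cyclin D1, had a log2 fold change of 1.07 ± 0.28 (adjusted p = 0.0586, and 0.00297 with the block). Between genotypes the smallest p belonged to E2f3 and Myc in A5-negative (0.55 and 0.36) and to Ccnd3 and Myc in A5-positive cells (−0.41 and 0.52), with Myc at an adjusted p of 0.239 and, with the block, 0.0451.

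Of 17 tested genes that hold the cycle back, 3 rose in wild-type (Cdkn2c, Cdkn2d and Rbl1) and 2 in RORγt-deficient A5-positive cells (Cdkn2c and Rbl1). The list medians were −0.12 and −0.05. With the block the same 3 rose and Btg1, Btg2 and Tob1 fell in wild-type cells, while Cdkn2c, Cdkn2d and Rbl1 rose and Cdkn2b fell in RORγt-deficient cells. Cks1b, Cdk4, Btg2 and Cdkn2b are named after their values were seen. The CDK inhibitors Cdkn2c and Cdkn2d rose by 0.79 ± 0.15 and 0.71 ± 0.17 in wild-type cells (adjusted p 0.0154 and 0.0373) and the pocket protein gene Rbl1 by 0.92 ± 0.2 (adjusted p = 0.028). Btg1 and Tob1, antiproliferative genes, had the smallest p between genotypes (0.34 and 0.31 in A5-negative, 0.55 and 0.4 in A5-positive cells), and neither passed (adjusted p 0.779, 0.779, 0.207 and 0.298).

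Genes of mitosis had a larger median than the replication members. Of 28, 25 rose in wild-type (27 with the block) and 27 in RORγt-deficient A5-positive cells, with medians of 1.39 and 1.65. Tpx2, a spindle factor, went from 18.8 ± 1.41 to 55.2 ± 7.31 CPM in wild-type cells (1.55 ± 0.19, adjusted p = 0.00124). Kif20a, a motor of cytokinesis, went from 17.7 ± 1.12 to 60.6 ± 6.95 CPM (1.77 ± 0.26, adjusted p = 0.00363), and the mitotic kinase gene Aurka rose by 1.21 ± 0.19 (adjusted p = 0.00517). Between genotypes the median of the 28 was −0.53 in A5-negative and −0.24 in A5-positive cells, and none passed with edgeR, with 8 and 0 of them at an unadjusted p under 0.05. Hmmr (−0.88) and Bub1b (−0.67) had the smallest p in A5-negative and Ttk (−0.39) and Aurka (−0.37) in A5-positive cells. When 1 library was left out, the wild-type counts ran from 0 to 15 of the further replication genes, 1 to 3 of the G1 genes, 0 to 3 of the brakes and 6 to 27 of the mitosis genes. In RORγt-deficient cells they ran from 3 to 22, 1 to 4, 0 to 2 and 25 to 27.

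**Figure D5:**
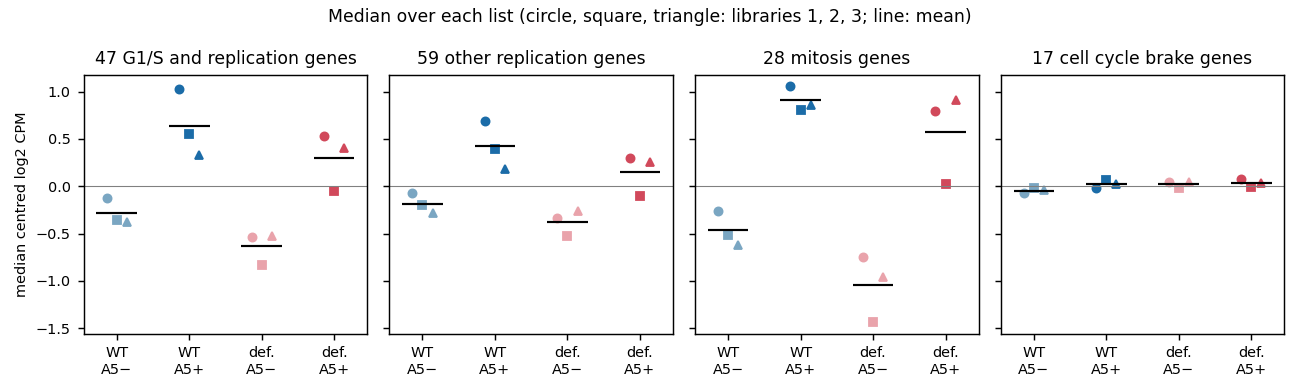
Median centred log2 CPM in each library for the 47 members, 59 further replication genes, 28 mitosis genes and 17 genes that hold the cycle back, by group. Members and mitosis genes stand higher in A5-positive than in A5-negative libraries of the same genotype, and the brake genes lie near 0 throughout.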

How the data were processed

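Bulk RNA-seq of sorted keratinocytes was analysed in 12 libraries, 3 in each of 4 groups, made with SMART-Seq v4 and ThruPLEX, per the labels' protocols. Reads were mapped to mm10 (GRCm38) with tools that include STAR, featureCounts, bcl2fastq and Trimmomatic 0.36, per the submitters' processing notes. The annotation, strand setting and treatment of multi-mapping reads are, for that step, not given in the sources used here. Unnormalized whole-number counts for each gene symbol were deposited by the authors. Of 55341 rows, 26 had symbols turned into dates and were dropped; they held 0.110% to 0.128% of a library's counts.

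Counts were fitted with edgeR 4.0.16 in R 4.3.3: TMM factors of 0.919 to 1.08, filterByExpr by group, 1 model of 4 groups over 12 libraries, the quasi-likelihood F test, and Benjamini-Hochberg adjustment over 16677 genes with a threshold of 0.05. The SE of a log2 fold change is its size divided by the root of F, and intervals are at 95%. For the interaction, the SE is the root of the summed squares of the SEs of both A5 effects. CPM are scaled by TMM. Positions, exon lengths and overlaps come from GENCODE for GRCm38. The fit was also run on simulated counts drawn without an effect of library number. That run cannot say whether the fit with or without the block is nearer for these data. Each library is a pool of 2 or 3 mice, and p-values speak of the spread among such pools.

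The library numbers of the labels were treated as pairs. Over 9071 genes whose mean log2 CPM was 3 or more, deviations from the group mean of same-numbered libraries correlated in all 18 pairs (r of 0.153 to 0.722, median 0.452). The median was −0.238 for 36 pairs with different numbers. Deviations within a group of 3 sum to 0, so this negative value follows from the positive one and is no separate evidence. The labels also speak of pools per sequencing run. The fit with the number as a block stands beside a result where it changes a call.

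Members and lists were chosen with earlier results of these data known. Values in every library are given for the pair of members with the smallest p and the member with the largest p of each role in the wild-type A5 effect. They are also given for the 3 with the smallest p in each genotype effect and the interaction, for members called there, and for members called in no A5 fit. Of each other list the 3 genes with the smallest p in the wild-type A5 effect and the 2 in each genotype effect are named. Some genes that this rule names, and a check of the genotype labels on the counts, are not reported here. Alternatives were RLE size factors, DESeq2 1.42.0, limma 3.58.1 voom with quality weights, no filter, a stricter filter (5 CPM in 3 libraries), the replicate block alone and with genotype, 6 libraries only, and leaving out each library. Leaving out all 4 libraries of 1 number was added after the data were seen. CPM of total counts and a shorter promoter window were also tried.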

Additional observations from a re-analysis of the deposited data

How the results depend on the processing

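The count of 22 members higher in wild-type A5-positive cells was 34 with DESeq2, 37 with the replicate block, 37 with genotype and replicate block and 12 with only the 6 libraries compared, and it ran from 4 to 26 when 1 library was left out. With RLE size factors, voom, no filter and the stricter filter it was 21, 27, 28 and 20. The 25 in RORγt-deficient cells ran from 6 to 31 when 1 library was left out and from 19 to 35 under the other planned settings. Without all libraries numbered 1, 2 or 3, which leaves 2 libraries a group, the wild-type count was 1, 1 and 0 and the RORγt-deficient count 7, 11 and 0. At an unadjusted p under 0.05, edgeR had 34 and 32 members without number 1, beside 12.7% and 14.3% of all genes tested there. It had 36 and 40 without number 2, beside 18.2% and 24.3%, and 37 and 34 without number 3, beside 12.4% and 10.4%. Shares of all genes past the adjusted threshold are not given here for fits with libraries left out.

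In the genotype comparison of A5-positive cells 1 member passed with DESeq2 and 1 with the replicate block, against 0 otherwise. With the block and 1 library left out, the counts ran from 20 to 39 in wild-type, from 24 to 36 in RORγt-deficient cells and from 0 to 4 for genotype in A5-positive cells. The genotype count in A5-negative cells and the interaction count were 0 in each setting run. The wild-type A5 effect of E2f2 changed sign without A5-negative replicate 1 (−0.0525) and without all libraries numbered 1 (−0.0427), ran up to 0.196 with other libraries left out, and passed in none. The pairing by number also moved calls in the marker lists: of 10 keratinocyte markers 3 were higher and 2 lower in wild-type A5-positive cells with the block, against 0 without it. The cause of these shifts was not tested.

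Over all genes, the calls were 575 in wild-type and 921 in RORγt-deficient A5 effects with edgeR, 1454 and 1723 with DESeq2, 989 and 1566 with voom and 2394 and 2937 with the block. For genotype they were 1 in each fraction with edgeR, 21 and 493 with DESeq2, 7 and 5 with voom and 1 and 670 with the block. Scaling by total counts moved 121 of 124 group means of named members by less than 1 SD and 3 by more. Low counts limit Fen1 most, with as few as 19 in a library. Whether this comes from depth or from the 78.8% of its exon length shared with Gm10143 was not tested.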
